A study of Tuber borchii with 4 samples.

Results

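The genes described here are those of the truffle *Tuber borchii* whose transcripts were abundant in maltose-peptone medium (MPY) and at least 3 times lower in each of the other liquid media of the study. They were selected on these measured values alone. A gene was a member when it had at least 10 CPM (its count over the library total, times 1000000) in MPY and at least 3 times the CPM of potato dextrose broth (PDB), of woody plant medium with glucose (WPG) and of woody plant medium with glucose and yeast extract (WPGY). The rule found 178 of the 12346 gene models. RNA came from mycelium of the strain SP1, an isolate taken into axenic culture from a truffle, grown in the dark at 22 °C in static submerged cultures, and 1 library was sequenced per medium. MPY contained maltose at 35 g/L with peptone and yeast extract at 5 g/L each, WPG held 20 g/L glucose, WPGY held 20 g/L glucose and 5 g/L yeast extract, and PDB was used at 20 g/L. The labels give the harvest as day 85 for MPY and PDB and day 65 for WPG and WPGY, whereas the headers of the counts name day 83 for MPY and day 64 for the woody plant media. Since each medium had 1 library, the spread between cultures is unknown and no test between media was made. Medium, culture and library cannot be told apart, and against the woody plant media neither can the age of the culture.

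*T. borchii*, the bianchetto truffle, is an ascomycete that lives in symbiosis with tree roots and whose mycelium can also be grown without a host. Maltose is a disaccharide of glucose that fungi generally take up through transporters or split outside the cell with glucosidases. Peptone is protein that has been partly digested, and it offers peptides and amino acids as nitrogen sources. In filamentous fungi, genes of secondary metabolism often lie side by side on a chromosome and can be transcribed together. The study describes the genes of central metabolism, by contrast, as dispersed. Whether neighbouring members share a pathway was not tested.

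The members differed widely in level. In MPY they ran from 10.4 to 6539 CPM with a median of 152 CPM, and 18 of them had at least 1000 CPM, 87 had 100 to 1000 CPM and 73 had 10 to 100 CPM. Their medians were 20.1 CPM in PDB, 22.4 CPM in WPG, and 21.8 in WPGY. Over all genes of at least 10 CPM in MPY, the medians were 70.2 CPM in MPY, 75.4 CPM in PDB, 72.1 CPM in WPG, and 71.3 in WPGY. The rule itself favours low values of the members outside MPY. The other media were not silent for these genes, since 23 members exceeded 100 CPM in PDB, 24 in WPG and 24 in WPGY, and no member was without counts in any library. The lowest counts behind a member were 497 (MPY), 15 (PDB), 31 (WPG), and 13 (WPGY).

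Of the 6747 genes with at least 10 CPM in MPY, 4.51% reached 3 times PDB, 5.35% reached 3 times WPG and 5.37% reached 3 times WPGY. The members, which met all 3 limits, were 2.64% of these genes. Since the rule used these contrasts, the shares describe the choice only. Without PDB in the rule 340 genes would have been members. Leaving out WPG alone gave 189 and leaving out WPGY alone gave 182, but these media were nearly alike and each kept the limit of the other. With both left out, the 304 genes that reached 3 times PDB would have been members.

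**Figure D1:**
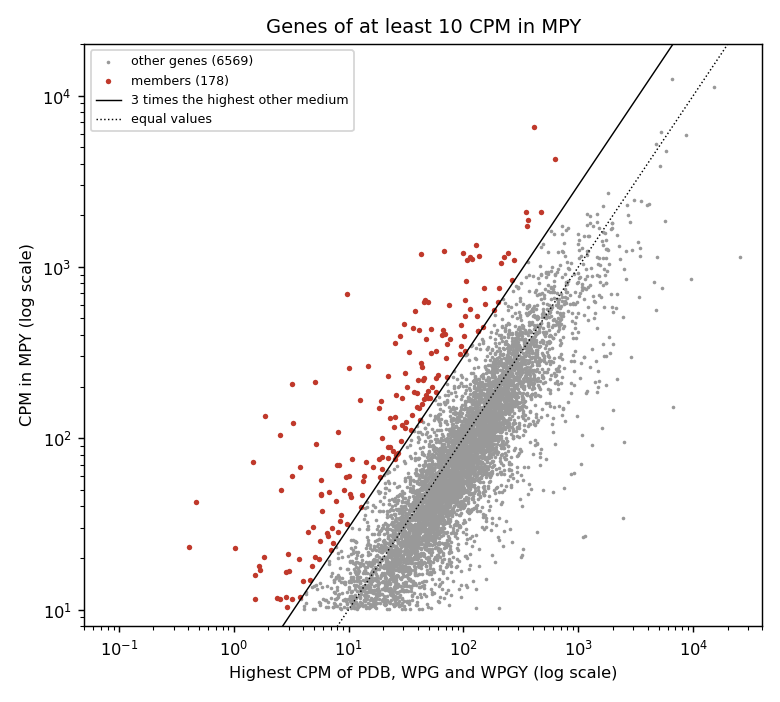
CPM in MPY (vertical, log scale) against the highest CPM of PDB, WPG and WPGY (horizontal, log scale) for the 6747 genes with at least 10 CPM in MPY, 1 point per gene. The 178 members, in red, lie on or above the solid line of 3 times the highest other medium, and the 2 topmost members reach 6539 and 4247 CPM in MPY.

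Together, the members took 6.41% of all counts in MPY (95% Wilson interval 6.40 to 6.41). In PDB these genes held 0.881% (interval 0.879 to 0.882). Their share was 0.802% for WPG (interval 0.801 to 0.804), and for WPGY it was 0.799% (interval 0.798 to 0.801). These intervals, and those of the ratios below, cover counting error only. The 2 highest members held 16.8% of the members' counts in MPY, the 10 highest held 36.8% and the 25 highest held 58.9%. Among the 100 most expressed genes of MPY 18 were members, and none was among the 100 most expressed of PDB, WPG or WPGY. Members were 2.64% of all genes of at least 10 CPM in MPY. Since the rule set MPY at least 3 times above each other medium, the lower shares and places outside MPY describe the choice only.

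By CPM, which is not corrected for length, the highest member was gene 980014 (positions 115527 to 116841 on sequence 95 of the Tubbor1 assembly). It had 6539 CPM in MPY, 412 CPM in PDB, 115 CPM in WPG, and 116 in WPGY. This gene was thus graded, with PDB 3.58 times as high as the mean of the woody plant media and MPY 15.9 times as high as PDB (interval 15.7 to 16.0). Gene 1023977 (sequence 97, positions 100808 to 102731) followed with 4247 CPM in MPY, 630.4 CPM in PDB, 466 CPM in WPG, and 468 in WPGY. It had the highest level of all members in each of the other media, and its ratio of 6.74 to PDB was smaller than that of 980014.

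Gene 1072663 had 2101 CPM in MPY, 474 CPM in PDB, 314 CPM in WPG, and 301 in WPGY. Gene 1090294 had 2083 CPM in MPY, 349.9 CPM in PDB, 263 CPM in WPG, and 244 in WPGY. As in 980014, PDB was the second highest medium in both, and MPY was 4.43 and 5.95 times as high as PDB. Gene 1091870 had 1873 CPM in MPY, 367 CPM in PDB, 84.4 CPM in WPG, and 82.6 in WPGY, and gene 718409 had 1723 CPM in MPY, 360.1 CPM in PDB, 234 CPM in WPG, and 238 in WPGY. In 1091870 the step from the woody plant media to PDB was as marked as in 980014, 4.39 times, whereas in 718409 it was 1.53 times.

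The order of the other media was different in gene 1064615 (sequence 102, positions 182481 to 185361), which the study's annotation gives as a protein of unknown function with the domain DUF4449. It had 1244 CPM in MPY, 13.8 CPM in PDB, 63.8 CPM in WPG, and 68.1 in WPGY. PDB was here the lowest medium, so that MPY was 90.3 times as high as PDB but 18.3 times as high as WPGY (interval 17.8 to 18.7). Gene 1090460 had 1207 CPM in MPY, 125 CPM in PDB, 246 CPM in WPG, and 244 in WPGY, also with PDB lowest. Gene 1061269 (sequence 17, positions 294743 to 297366) combined a high level with a wide gap, at 1188 CPM in MPY against 36.9 CPM in PDB, 42.7 CPM in WPG, and 41.7 in WPGY. Among the members, this gene alone was both among the 12 highest in MPY and among the 10 with the largest ratio, which was 27.8 (interval 27.0 to 28.7). The remaining genes of the 12 highest, 1130880, 964556 and 1197186, had 1154 to 1344 CPM in MPY and between 66.9 and 135 CPM elsewhere.

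The ratio of MPY to the highest other medium had a median of 5.02 over the members, with quartiles of 3.80 and 8.56. It was at least 5 for 90 members, at least 10 for 38 and at least 20 for 12. Over all 6747 genes of at least 10 CPM in MPY the median was 0.824. The largest ratios belonged mostly to genes of middle level. Gene 1131693 (sequence 242, positions 110822 to 111127) had 42.5 CPM in MPY, 0.0953 CPM in PDB, 0.430 CPM in WPG, and 0.470 in WPGY. Its ratio of 90.4 rests on few counts in the other libraries (15 for PDB, 50 for WPG, 59 for WPGY), and its interval ran from 69.8 to 119.

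Gene 1009449 (sequence 517, positions 10421 to 12398) had the highest level among the 10 largest ratios after 1061269, with 690.2 CPM in MPY, 9.70 CPM in PDB, 5.78 CPM in WPG, and 5.28 in WPGY. The ratio was 71.2 (interval 67.6 to 75.0). Gene 1108898 (sequence 154) had 105 CPM in MPY against 2.31 CPM in PDB, 2.52 CPM in WPG, and 2.49 in WPGY, so that the other media were nearly level, and the ratio was 41.6. The other genes with the 10 largest ratios were 752006, 1097124, 1071610, 197806, 988158 and 1071612. All 6 lay beside another member in the genome and are described with their neighbours.

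**Figure D2:**
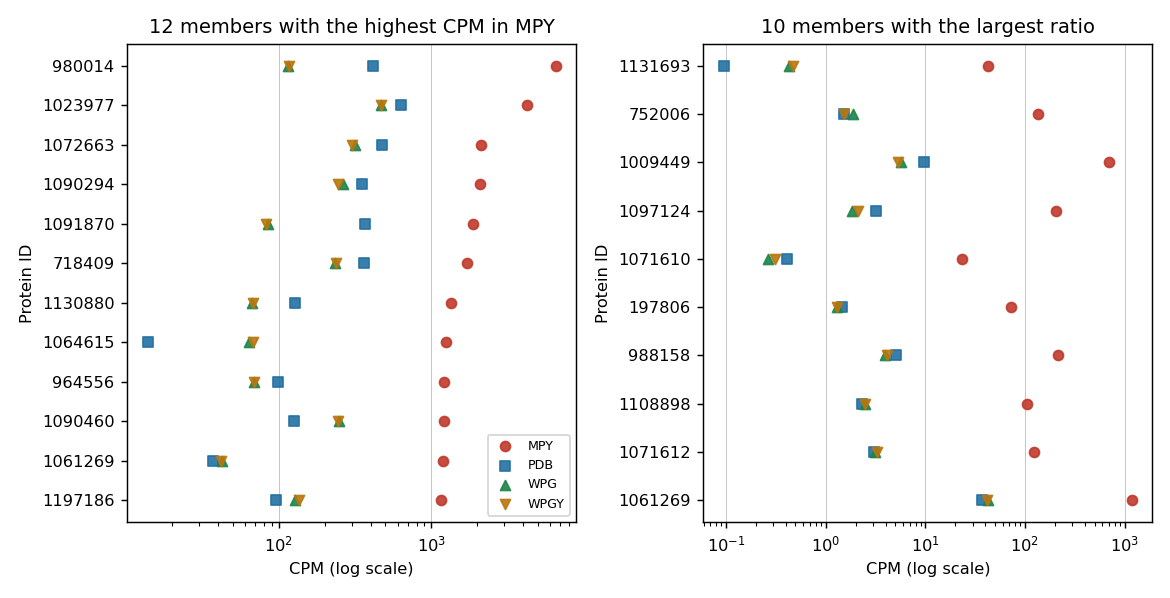
CPM (log scale) in MPY (circles), PDB (squares), WPG (upward triangles) and WPGY (downward triangles) for the 12 members with the highest CPM in MPY (left) and the 10 with the largest ratio of MPY to the highest other medium (right), 1 library per medium. WPG and WPGY lie close together on the left, and PDB lies above them in 980014 and 1091870 and below them in 1064615 and 1131693.

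Function could be read for few members. The rows of the study's annotation used here cover 827 of the 12346 gene models and 11 of the 178 members (6.18%), and 8 of the 11 carry a description. Lists of genes by function are therefore void for this group, and the counts of their members say nothing about sugar or peptide use. The same holds for the summed histone, translation and heat shock genes of these rows as signs of growth state. The members 1192929 and 1126612 fell in the list of oxidoreductases, which had 35 genes of at least 10 CPM in MPY, and 981019 fell in the list of transcription factors, which had 24. No member fell in the other 12 lists, among them transporters with 13 such genes, peptidases and amino acid use with 12, and maltose and starch use with 1.

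Of the annotated members, 1064615 was described above. Gene 982518, annotated as a cell surface protein, had 264 CPM in MPY, 4.32 CPM in PDB, 14.9 CPM in WPG, and 14.1 in WPGY, a ratio of 17.7 to WPG. Gene 981019, which carries a fungal specific transcription factor domain, had 92.7 CPM in MPY, 5.19 CPM in PDB, 2.65 CPM in WPG, and 2.08 in WPGY, a ratio of 17.9 to PDB. These 3 genes stood well inside the limit.

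The other members with a description had ratios between 3.34 and 4.97, and the 3 annotated members without a description, 1105157, 982633 and 1141323, had 17.8, 3.18 and 4.91. Gene 1114726 is annotated as an epimerase of damaged NAD(P)H, an enzyme of a repair step for these cofactors, and had 220 CPM in MPY, 27.5 CPM in PDB, 43.3 CPM in WPG, and 44.2 in WPGY. Gene 1126612 (xdhA) is annotated as a sorbitol dehydrogenase. Enzymes of this family oxidize sugar alcohols to sugars, and the gene had 25.1 CPM in MPY, 5.63 CPM in PDB, 3.31 CPM in WPG, and 3.28 in WPGY. Gene 1192929, a predicted dehydrogenase with the annotation NAD dependent epimerase or dehydratase, had 159 CPM in MPY, 23.1 CPM in PDB, 43.6 CPM in WPG, and 40.0 in WPGY.

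Gene 1013859 is annotated as a phosphatidylethanolamine binding protein, named TFS1 after a gene of *Saccharomyces cerevisiae* whose product inhibits the vacuolar carboxypeptidase Y in that yeast. It had 136 CPM in MPY, 22.2 CPM in PDB, 35.5 CPM in WPG, and 35.9 in WPGY. Gene 1070238 is annotated as a RING finger protein, a domain found in many ubiquitin ligases. It had 310 CPM in MPY, 80.0 CPM in PDB, 88.3 CPM in WPG, and 92.7 in WPGY, the smallest ratio of the members with a description at 3.34. The short models 987363 and 892438 are given in the study without an assigned function. Gene 987363 had 604 CPM in MPY, 154 CPM in PDB, 57.4 CPM in WPG, and 54.7 in WPGY.

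The rule named no order among the 3 other media, although it used the values of each. PDB was the highest of them for 80 members (44.9%), against 49.8% of all genes of at least 10 CPM in MPY, and it was the lowest for 86 members (48.3%), against 45.5%. The median ratio of PDB to the mean of WPG and WPGY was 0.995 over the members and 1.02 over all these genes. PDB was over 2 times the woody plant mean in 16 members (8.99%), against 8.27%, and under 0.5 times the mean in 25 members (14.0%), against 6.65%. A low value in PDB also helps a gene to meet the rule, so that these shares describe the members and are not independent of how they were chosen. The ratio ran from 0.0943 to 16.2 over the members.

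**Figure D3:**
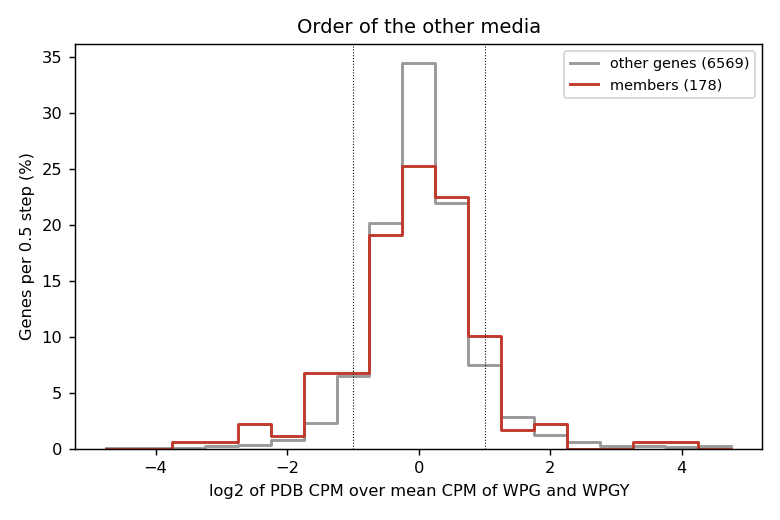
Share of genes in percent (vertical) per 0.5 step of the log2 ratio of CPM in PDB to the mean CPM of WPG and WPGY (horizontal), for the 178 members in red and the 6569 other genes of at least 10 CPM in MPY in grey, with values outside the axis placed in the outermost steps. The dotted lines mark 2 times and 0.5 times, and both distributions are centred near 0, with 25 members left of the lower line and 16 right of the upper line.

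WPGY differs from WPG by yeast extract, which MPY also held, at the same 5 g/L. WPGY lay within 10% of WPG for 158 members (88.8%), against 91.0% of all genes of at least 10 CPM in MPY. The rule kept out any gene whose WPGY value came near its MPY value, so the members' share is not independent of the choice. Whether yeast extract changes these genes was not tested. The median log2 ratio of WPGY to WPG was -0.0098 over the members and -0.0051 over all these genes, and 83 members were higher in WPGY and 95 lower. The exception was gene 916205 (sequence 24), the only one of the 6747 genes for which these libraries were over 1.5-fold apart. It had 11.5 CPM in MPY, 3.21 CPM in PDB, 0.292 CPM in WPG, and 0.104 in WPGY. The value in WPG was 2.82 times that in WPGY, from 34 and 13 counts, with an interval of 1.45 to 5.82. This gene was chosen after its values were seen.

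The rule used no position. All 178 members were placed on the Tubbor1 assembly, on 123 of its 617 sequences with gene models. Of the members, 27 (15.2%) had another member as the next gene model on the same sequence. Of the 340 places next to a member, 30 (8.82%) were held by members, some of them by models that overlap. Members made up 1.44% of all positioned gene models and 2.64% of the genes of at least 10 CPM in MPY. The 27 genes formed 12 runs, 3 of them of 3 genes and 9 of 2 genes. Within 2 gene models 32 members had another member, and within 5 gene models 39 had. Wider windows hold more places, and no matching share over all gene models was counted for them.

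The strongest contrasts among these runs were those of sequences 7, 517 and 164. On sequence 7, genes 1071610, 752006 and 1071612 follow each other from position 140367 to 144022. Gene 752006 had 135 CPM in MPY, 1.54 CPM in PDB, 1.88 CPM in WPG, and 1.52 in WPGY. Gene 1071612 had 123 CPM in MPY, 3.07 CPM in PDB, 3.14 CPM in WPG, and 3.27 in WPGY. Gene 1071610 was lower throughout, at 23.3 CPM in MPY, 0.407 CPM in PDB, 0.266 CPM in WPG, and 0.311 in WPGY. The ratios of the 3 genes were 57.2, 71.5 and 37.6 in the order of their positions. The models 1071610 and 752006 overlap by 387 bp, so that their values may share reads.

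On sequence 517, gene 1097124 (positions 12338 to 13236) begins within 1009449 and overlaps it by 61 bp. It had 206 CPM in MPY, 3.22 CPM in PDB, 1.86 CPM in WPG, and 2.12 in WPGY, and its ratio of 64.1 was close to the 71.2 of 1009449. The models on either side, 660320 and 660373, had 7.13 and 6.92 CPM in MPY and ratios of 0.841 and 0.674, so that the contrast ended at the borders of the pair. On sequence 164, genes 197806 (positions 6937 to 7470) and 988158 (positions 7522 to 7788) are 51 bp apart. Gene 988158 had 214 CPM in MPY, 5.12 CPM in PDB, 3.92 CPM in WPG, and 4.18 in WPGY. Gene 197806 had 72.7 CPM in MPY, 1.46 CPM in PDB, 1.31 CPM in WPG, and 1.29 in WPGY, and the ratios were 41.7 and 49.8.

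The most expressed runs were those of sequences 218 and 423. On sequence 218, gene 1130880 (positions 103755 to 104200) had 1344 CPM in MPY, 128 CPM in PDB, 66.9 CPM in WPG, and 67.8 in WPGY. Its neighbour 1089818 had 69.7 CPM in MPY, 7.89 CPM in PDB, 6.51 CPM in WPG, and 6.65 in WPGY. The levels of the pair were far apart in MPY, whereas the ratios, 10.5 and 8.83, were close. On sequence 423, gene 1197186 (positions 48100 to 50627) had 1154 CPM in MPY, 96.4 CPM in PDB, 127 CPM in WPG, and 135 in WPGY. Gene 1006445 had 1138 CPM in MPY, 42.8 CPM in PDB, 114 CPM in WPG, and 106 in WPGY. The third gene, 1095964, had 198 CPM in MPY, 53.6 CPM in PDB, 43.5 CPM in WPG, and 43.0 in WPGY. The ratios of 1197186 and 1006445 were 8.52 and 9.98, and that of 1095964 was 3.69.

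On sequence 53, the short model 892438 (positions 191140 to 191298) had 602 CPM in MPY, 24.6 CPM in PDB, 74.7 CPM in WPG, and 70.0 in WPGY, and its neighbour 1122746 had 100.3 CPM in MPY and between 10.2 and 19.5 CPM elsewhere. On sequence 322, genes 1001718, 483769 and 1093643 had 46.3, 48.4 and 519.5 CPM in MPY, and ratios of 8.12, 7.19 and 5.08. In the former pair PDB was the lowest medium for each gene, and in the latter run it was the highest of the other media for each gene. The remaining 5 runs had between 16.6 and 186 CPM in MPY and ratios between 3.21 and 22.5.

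Over the 15 adjacent pairs, the ratios of MPY to the highest other medium differed by a median of 0.25 on the log2 scale, against 0.75 over all 15753 pairs of members, and 13 of the 15 pairs (86.7%) had ratios within 2-fold of each other, against 59.8% of all pairs. Over the 11 pairs whose models do not overlap, the median difference was 0.50 and 9 (81.8%) were within 2-fold. In 4 of the pairs the models overlap, by 22 to 387 bp. The 11 others lie 51 to 2119 bp apart, with a median of 636 bp, whereas the median over all adjacent models that do not overlap was 1945 bp. When pairs of overlapping models were not counted, 21 members still lay next to another member. Whether close models belong to a single transcript, and how reads in an overlap were assigned, was not tested.

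**Figure D4:**
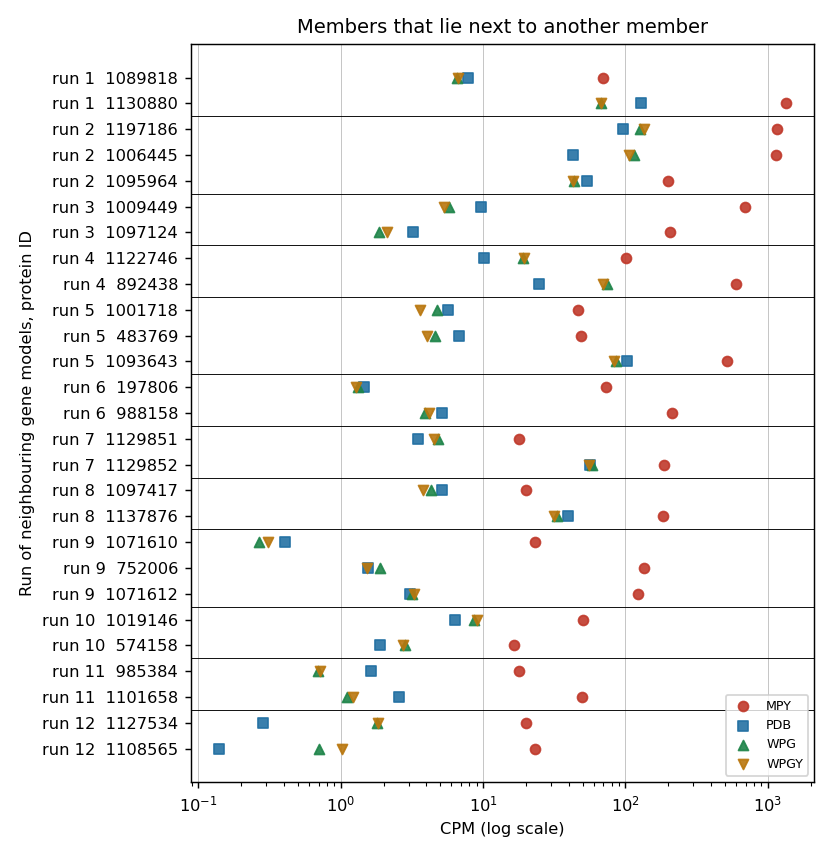
CPM (log scale) in MPY (circles), PDB (squares), WPG (upward triangles) and WPGY (downward triangles) for the 27 members that lie next to another member, in 12 runs separated by lines and ordered by the highest CPM in MPY. MPY lies above the other media in each gene, as the rule requires, and the levels within a run can differ widely, as in run 1 (sequence 218) with 69.7 and 1344 CPM in MPY.

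Neighbours that were not members and had at least 10 CPM in MPY were below the limit of 3 times by the rule itself. There were 197 such genes, and their ratio of MPY to the highest other medium, which is limited in the same way for all non-members, had a median of 0.965, against 0.813 over all 6569 non-members of that level. A ratio of at least 2 was found in 21 of the 197 (10.7%), against 3.12% of the non-members. At the outer borders of the 12 runs, 13 flanking models had at least 10 CPM in MPY, and none of them reached a ratio of 2. Of the 9 flanking models with less than 10 CPM, 4 did. The share of such ratios over all genes with less than 10 CPM was not counted. Some of these models rest on few counts, as 1189341 with 0.250 CPM in MPY, so the 4 are not read as a trait of the runs.

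The span of the gene model, introns included, had a median of 1451 bp over the members and 1628 bp over all genes of at least 10 CPM in MPY. Models shorter than 500 bp made up 8.99% of the members (16 genes) and 3.47% of these genes. The shortest was 892438, with 159 bp. CPM does not correct for length, whereas a ratio between media compares a gene with itself. Per kb of span, the order of the members in MPY changed. Gene 980014 stayed first with 4973 CPM per kb, 892438 moved from place 30 to place 2 with 3788 CPM per kb, 1130880 from 7 to 3 with 3014 CPM per kb, and 987363 from 29 to 7 with 1624 CPM per kb. Gene 1023977 moved from 2 to 5. Span includes introns, so that transcript length, and the order by it, may differ. In the study's TPM values for MPY, 892438 and 987363 are among the 10 highest genes and 980014 is not. The place of 980014 as first therefore holds for span only.

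Near the limit of 3 times, the members 545630 and 1087154 had ratios of 3.03 each, and the genes 1085572 and 1077884 fell just short of it. Gene 1085572 had 129 CPM in MPY and 42.9 CPM in PDB, but 2.78 CPM in WPG, and 2.45 in WPGY, so that PDB alone kept it outside. Near the limit of 10 CPM, the members 1028671 and 1068790 had 10.4 and 11.5 CPM in MPY, and 961917 and 1052900, which passed the limit of 3 times, had 9.30 and 8.05 CPM. For 167 of the 178 members the interval of the ratio lay wholly above 3, and for the other 11 counting error reaches across the limit. The rule chose the members by these same ratios, so this count describes the choice and is no support for it.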

How the data were processed

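The authors deposited 1 table of raw counts per gene model for each of the 4 libraries. By the study's methods, mRNA libraries were sequenced as paired reads of 150 bp, inspected in FastQC and cleared of adapters by Trimmomatic. Reads were mapped to the Tubbor1 genome (strain Tbo3840) by STAR and counted with featureCounts. The study also names kallisto, for TPM values. These were not used here, apart from the mention of the study's highest genes in MPY. The strand and multi-mapping settings are not given in the sources used here. Library totals were 47969567 (MPY), 157335190 (PDB), 116376579 (WPG) and 125457058 (WPGY) counts, so that 1 count was 0.0208, 0.00636, 0.00859 and 0.00797 CPM.

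CPM was the count over the library total, scaled to 1000000. Ratios of 2 libraries carry exact conditional binomial intervals and shares carry Wilson intervals, at 95%, for counting error only. No test between media was made. Positions came from the Tubbor1 table of the reference, in which all members were found by protein ID. Functions came from the rows of the study's annotation at hand. Members and lists were chosen with earlier results of these data known. Genes were named as the 12 highest in MPY, the 10 largest ratios, up to 6 annotated members in each of 8 functional lists, the neighbouring members with the highest CPM up to 12 genes, and the genes nearest each limit. Outside this rule, the other members with a description were named because they were few, 987363 because the study lists it, the annotated members without a description for their range, and 916205 and the genes beside runs after their values were seen. 1 gene model is not reported here.

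The procedure was run on simulated data, in which all libraries were drawn from the PDB mix with counting error only and chosen genes were raised in MPY. The simulation held no spread between cultures. It therefore checks the working of the rule and its intervals and says nothing about the members found. The alternatives were other limits, minima and scalings (among them the trimmed mean of M values, TMM, from edgeR 4.0.16), thinning, an added CPM, length-scaled counts and rules without a library. Tables were handled in pandas 2.3.3 and numpy 2.4.6 under Python 3.11.15, intervals came from scipy 1.17.1, and plots from matplotlib 3.10.9.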

Additional observations from a re-analysis of the deposited data

How the results depend on the processing

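The number of members, 178, was 383 with a limit of 2-fold, 120 with 4-fold, 90 with 5-fold, and 340 when PDB was left out of the rule. Under the other 12 alternatives it lay between 161 and 253, and all 178 members were kept under median-of-ratios scaling (202 genes) and TMM scaling (201 genes). Median-of-ratios scaling raised the log2 ratio of MPY to WPG by 0.14, to WPGY by 0.13 and to PDB by 0.03. The summed level of the members in MPY, 6.41%, was 6.75% under median-of-ratios scaling, 6.68% under TMM scaling and 7.76% with length-scaled counts. The values under median-of-ratios and TMM scaling are rescaled sums and not shares of MPY. A factor for the whole library leaves the share within it unchanged. Set against the library total without its 10 highest genes, the same sum came to 6.84%. That value is not a share of the reduced total, since the sum keeps 980014 and 1023977. These members rank 3 and 8 in MPY and were taken out of the total. Thinning leaves MPY as it is and gives no other value. The median ratio, 5.02, was 5.41 under median-of-ratios scaling, 5.33 under TMM scaling and 5.34 with length-scaled counts. The number of members with PDB as the highest other medium, 80, lay between 71 and 98. Of the 42 members traced one by one, 39 kept a ratio of at least 3 under all 6 scalings and offsets tried. The other 3, all near a limit or at low CPM, fell below it when 1 CPM was added to each value, 545630 to 2.95, 1028671 to 2.92 and 916205 to 2.97. Not counting overlapping neighbours was chosen after seeing the data. Without replicates, differences between cultures of the same medium are not measured, and depth limits only genes with few counts outside MPY, such as 1131693.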

Other observations

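Some genes beside the runs had at least 3 times the CPM of each other medium in MPY but lay below the minimum of 10 CPM. Next to the run on sequence 138, gene 1065517 had 4.15 CPM in MPY, 0.311 CPM in PDB, 0.137 CPM in WPG, and 0.0319 in WPGY. Beside the run on sequence 134, gene 1049295 had 3.25 CPM in MPY, 0.343 CPM in PDB, 0.782 CPM in WPG, and 0.941 in WPGY. Both were chosen after their values were seen, and their values outside MPY rest on few counts. In all, 137 genes with under 10 CPM in MPY had counts in another medium and at least 3 times its highest CPM. Of the 12346 gene models, 6747 had at least 10 CPM in MPY. A minimum of 5 CPM gave 185 members in place of 178, and a minimum of 10 counts in MPY gave 253. Many of the 137 therefore rest on few counts in MPY as well.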
